A study of Mus musculus with 9 samples.

Results

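Spinal cord of injured mice given hyperbaric oxygen (HBO) was compared with spinal cord of mice labelled as having no injury (control), to describe what still differed from uninjured cord under treatment. The 3 HBO and 3 control libraries made up 6 of the 9 libraries in the study. The other 3 came from injured cord without oxygen treatment (injury) and entered the same fit. All mice were wild-type C57BL/6 animals aged 7 to 9 weeks, and the cords were taken on day 7. The labels call the control samples uninjured while the study's design text speaks of sham animals, and it is not known from them whether the control mice had surgery. The type and level of the injury, and the pressure, dose and schedule of the oxygen, are not stated in any source used here. No label ties the 3 libraries of a group to separate animals. The p-values therefore reflect variation among libraries, part or all of which may be technical.

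Hyperbaric oxygen is oxygen breathed in a chamber above atmospheric pressure, which raises the amount of oxygen dissolved in blood and tissue. After spinal cord injury neurons and their processes are lost, microglia and blood-derived macrophages take up debris, and fibroblast-like and glial cells build a scar. Long noncoding RNAs are transcripts without a long open reading frame. Many lie inside or beside protein-coding genes, and some carry microRNAs or small nucleolar RNAs within their sequence.

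Total RNA was sequenced, and each deposited count table lists 69547 long noncoding transcripts. Summing transcripts that share an Ensembl gene name left 67924 features, of which 26602 were abundant enough to test. Values are in CPM (edgeR counts per 1e+06 of a library's tested counts, after TMM scaling). Counts summed by coding gene or by window, described below, were scaled by their own totals, so their CPM cannot be set against those of features. The listed counts per library ran from 2295433 to 2869551 in the 6 libraries, which was 19.2% to 19.5% of the library total in control and 17.1% to 18.7% in HBO. Noncoding RNAs of the HOX clusters, which mark positions along the body axis, were read as a check of the labelled tissue. They summed to between 91.8 and 118 CPM in all 9 libraries, and no other tissue was compared. On principal components of log2 CPM, the first component (29.9% of the variance) separated the 3 control libraries from the rest, and the second (12.1%) separated HBO replicate 3 from all others. In that library Gm26917, a transcript at the ribosomal RNA locus of chromosome 17, had 42.0 CPM, against 35908 to 74317 CPM in the other 8.

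Of the 26602 features, 771 rose and 369 fell in HBO against control, which was 4.29% in all, 2.9% upward and 1.39% downward (quasi-likelihood test of edgeR, Benjamini-Hochberg adjusted p under 0.05). A further measure of breadth is that 6902 features had an unadjusted p under 0.05. At least 2-fold changes made up 632 of the rises and 239 of the falls, and at least 4-fold changes 254 and 35. The features that rose had a median of 9.36 CPM in control, 27.4 in injury and 28.5 in HBO. Those that fell had medians of 33.7, 17.6 and 15.5 CPM. Between HBO and injury, which share no library, 4 features of 26602 passed (0.015%), and 1 of them was among the 1140. Scaled by library totals recovered from FPKM rather than by TMM, the median change over all features moved from -0.00 to -0.16 on the log2 scale and the split became 446 rises and 388 falls.

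**Figure D1:**
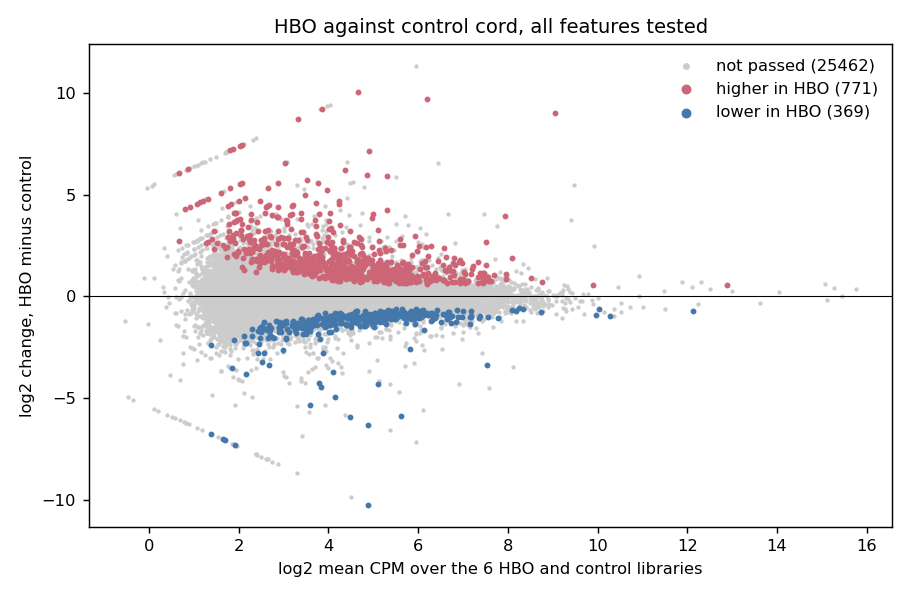
Each point is 1 of the 26602 features tested, with its log2 mean CPM over the 3 HBO and 3 control libraries on the x axis and its log2 change, HBO minus control, on the y axis. The 771 that rose and 369 that fell are coloured; the diagonal rows at top and bottom left are features with 0 counts in a whole group.

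The number of calls depended on single libraries. It was 20 without control replicate 1, 20 without control replicate 2, 272 without control replicate 3, and 667, 66 and 281 without HBO replicates 1, 2 and 3. The injury libraries enter the same fit and filter, and the count was 1037, 156 and 350 without injury replicates 1, 2 and 3. In each of these fits all 1140 features kept their direction. Among the 35 features named here that passed, 4 passed without control replicate 1 and 4 without control replicate 2. They were the same 4, and each kept its call under all alternatives that left it in the test: NONMMUT068776.2, RP23-380L19.3, NONMMUT086510.1 and NONMMUT054759.2. The adjusted p of the others was 0.0776 to 0.158 without control replicate 1 and 0.0626 to 0.115 without control replicate 2. Without HBO replicate 3, 12 of the 35 passed, and without HBO replicate 2, 7 did.

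By place in the genome, the rises lay mostly in introns and the falls mostly between genes. Of 11432 features inside a coding gene but off its exons, 421 rose and 123 fell. Of 9109 intergenic features 183 rose and 206 fell, with a median log2 change of -0.28. Of 6061 features that touched a coding exon 167 rose and 40 fell. On chromosome 16, 73 of 1712 features fell (4.26%), and on chromosome 1, 56 of 1669 (3.36%), against 1.39% of all features. On chromosome 19, 50 of 754 rose (6.63%), against 2.9% of all. Many of these calls lay in a few windows of 1 Mb, described below. Such windows held 31, 15 and 10 of the falls on chromosome 16 and 42 of those on chromosome 1. Another held 29 of the rises on chromosome 19.

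H19, an imprinted RNA abundant in fetal tissue and largely silent after birth, was 26.9, 28.6 and 33.8 CPM in control replicates 1, 2 and 3. It was 203, 688 and 490 CPM in HBO and 571, 429 and 162 CPM in injury. All 3 HBO libraries lay above all 3 control libraries, and the log2 change was 3.95 (SE 0.55, adjusted p = 0.0197, edgeR). Of all features tested, 32.9% had groups that did not overlap. The HBO libraries themselves spanned more than the control libraries did. The difference between HBO and injury was 0.25 on the log2 scale, with a 95% interval from -0.85 to 1.35.

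Dnm3os, an RNA transcribed against Dnm3 which gives rise to miR-199a and miR-214, was 1.51, 0 and 2.18 CPM in control. It was 61.0, 113 and 59.03 CPM in HBO. The 3 control libraries held 10 counts together and the HBO libraries 574, and the log2 change was 5.90 (SE 0.76, adjusted p = 0.0184, edgeR). With the transcripts that overlap it summed, the log2 change was 1.69. H19 in turn holds miR-675. The mature microRNAs inside these precursors are printed because these precursors had the largest rises among the RNAs with established names. They were not measured here. The sequences are RefSeq's, from GRCm38.p6, with the seed, bases 2 to 8, in capitals. The 4 in Dnm3os lie on chromosome 1 and the 2 in H19 on chromosome 7, and no 2 of them share a seed:
mmu-miR-199a-5p: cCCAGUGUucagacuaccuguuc
mmu-miR-199a-3p: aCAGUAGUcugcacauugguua
mmu-miR-214-5p: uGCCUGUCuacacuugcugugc
mmu-miR-214-3p: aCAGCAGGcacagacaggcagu
mmu-miR-675-5p: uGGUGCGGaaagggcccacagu
mmu-miR-675-3p: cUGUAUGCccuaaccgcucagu

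Other RNAs with established names rose by less. Snhg18, a host of a small nucleolar RNA, was 5.68, 6.75 and 10.9 CPM in control and 28.3, 42.7 and 35.2 CPM in HBO, a log2 change of 2.17 (SE 0.32, adjusted p = 0.0211, edgeR). Zeb2os, which runs against the transcription factor gene Zeb2, was 7.19, 7.15 and 10.5 CPM in control and 19.4, 36.8 and 30.3 CPM in HBO, a log2 change of 1.79. Brip1os was 118, 102 and 110 CPM in control and 207, 263 and 249 CPM in HBO, a log2 change of 1.12. Zeb2os overlaps exons of Zeb2, and Brip1os those of Ints2 and Med13. How strand was handled in counting is not given, so reads of these RNAs and of the coding genes across from them cannot be told apart.

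Ppnr, inside an intron of Tcf7l2, was 26.1, 28.6 and 23.6 CPM in control and 50.5, 70.3 and 52.96 CPM in HBO, a log2 change of 1.15. Mypopos rose by 1.60 and overlaps the end of Mypop. The pseudogenes Gpr137b-ps and Hmgb1-ps8 rose by 1.52 and 1.71, and their values are uncertain because near-identical coding copies can share their reads. Gpr137b-ps was 52.99, 64.3 and 57.8 CPM in control and 163, 179 and 161 CPM in HBO, the HBO libraries lying close together. Mir143hg, the host of miR-143, rose by 1.05.

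Gdap10 was the named RNA that stood highest in HBO against both other groups, though only the contrast with control passed. It lies in an intron of Nampt, the gene for an enzyme of NAD synthesis. It was 49.96, 29.8 and 38.2 CPM in control and 113, 66.9 and 144 CPM in HBO. Injury libraries held 54.2, 57.0 and 57.9 CPM. The log2 change from control was 1.46 (SE 0.29, adjusted p = 0.0352, edgeR), and from injury 0.94 with a 95% interval from 0.30 to 1.58, unadjusted. With overlapping transcripts merged the change from control was 0.57 (adjusted p = 0.068, edgeR), a value that did not pass.

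Xist, the RNA that coats the inactive X chromosome in females, was 5546, 6581 and 6038 CPM in control. It was 8086, 9464 and 9288 CPM in HBO and 9211, 8895 and 8217 CPM in injury. The log2 change was 0.56 (SE 0.13, adjusted p = 0.044, edgeR). The sex of the animals is not given in the labels, and all 9 libraries held Xist at a high level.

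Among the named RNAs that fell, 2 hosts of the neuronal microRNA miR-124 were represented. Mir124a-1hg was 165, 104 and 118 CPM in control and 55.1, 53.9 and 52.96 CPM in HBO, a log2 change of -1.26 (SE 0.25, adjusted p = 0.0352, edgeR). Mir124-2hg was 266, 239 and 250 CPM in control and 132, 113 and 134 CPM in HBO, a change of -0.99 (SE 0.15, adjusted p = 0.0211, edgeR). In both RNAs the 3 HBO libraries lay close to each other and below every control library.

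Meg3 and Rian, maternally expressed RNAs of the imprinted Dlk1-Dio3 domain, also fell. Meg3 was 6402, 4809 and 5571 CPM in control and 3534, 3135 and 3346 CPM in HBO, a log2 change of -0.74 (SE 0.15, adjusted p = 0.0375, edgeR). Rian was 1404, 1203 and 1193 CPM in control and 799, 798 and 914 CPM in HBO, a change of -0.60. Mirg of the same domain was 254, 184 and 276 CPM in control and 147, 141 and 166 CPM in HBO. Its groups did not overlap, as for 32.9% of all features, and it did not pass (-0.65, adjusted p = 0.0827, edgeR). Meg3 holds 3 mature microRNAs of the RefSeq table and Rian 6, and each has a seed of its own. Those of Meg3, on chromosome 12, are shown because Meg3 was the most abundant named RNA that fell:
mmu-miR-770-5p: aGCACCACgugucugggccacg
mmu-miR-770-3p: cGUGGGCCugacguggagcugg
mmu-miR-1906: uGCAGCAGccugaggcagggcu

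Snhg14, the long imprinted RNA that carries small nucleolar RNAs and runs across Ube3a, was 1437, 1322 and 1165 CPM in control and 830, 542 and 741 CPM in HBO, a log2 change of -0.89 (SE 0.19, adjusted p = 0.0414, edgeR). It overlaps exons of Ube3a. Of 9 imprinted noncoding RNAs tested, H19 rose, Meg3, Rian and Snhg14 fell, and 5 missed the threshold; the median log2 change was -0.60. Of 14 noncoding RNAs of neural lineages, 4 fell and none rose, with a median of -0.65. The 4 were Meg3, Snhg14 and both miR-124 hosts. Without control replicate 1 or control replicate 2 none of these imprinted or neural members passed.

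Of 38 known long noncoding RNAs tested, 3 rose, 4 fell and 31 did not pass, where 4.29% of all features were called, and their median change was -0.00. Malat1, a nuclear RNA among those that did not pass, was 150, 182 and 150 CPM in control and 165, 160 and 147 CPM in HBO, a log2 change of -0.03 that became 0.34 with overlapping transcripts merged. Neat1, which builds paraspeckles, was 2010, 2239 and 4465 CPM in control and 4147, 5272 and 4626 CPM in HBO (0.69, adjusted p = 0.259, edgeR), and control replicate 3 lay inside the range of the HBO libraries. Sox2ot, which runs over Sox2, had a change of 0.04, and Rmst, a neural RNA, of -0.30. Gas5, a growth-arrest RNA, stood at 0.51 (adjusted p = 0.0787, edgeR) without overlap between the groups, as in 32.9% of all features. Of 7 HOX cluster RNAs tested none passed by edgeR, by DESeq2 or at an unadjusted p under 0.05, with a median of -0.33. Of 14 hosts of small nucleolar RNAs, Snhg18 rose, Snhg14 and Rian fell, and 11 did not pass. Of 14 microRNA hosts 3 rose and 3 fell.

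**Figure D2:**
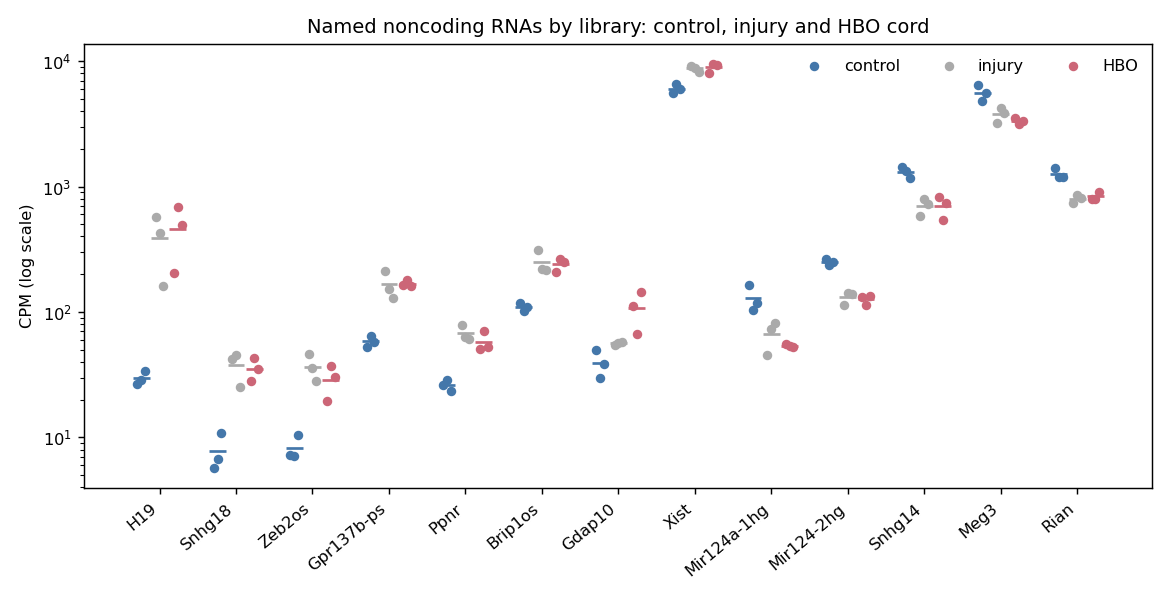
Points are the CPM of named noncoding RNAs in each library on a log axis, with bars at the group means, for 3 control, 3 injury and 3 HBO libraries. The HBO libraries of H19 sit between 203 and 688 CPM, all above the control libraries, and those of Meg3 between 3135 and 3534 CPM, all below them; Gdap10 is highest in HBO.

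These 4 features were nearly absent from 1 of the 2 groups. NONMMUT068776.2 (chr9:43045840-43050998, GRCm38) lies in an intron of Arhgef12. It had 0 counts in each control library and 53.2, 50.6 and 47.7 CPM in HBO, at least 133-fold higher when 3 counts over the control group stand for 0. RP23-380L19.3 (chr6:5216258-5220486) had 0, 0.397 and 0 CPM in control, which was 1 count in all, and 116, 188 and 136 CPM in HBO. Injury libraries held 49.7 to 57.9 CPM of the first and 129 to 206 CPM of the second.

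NONMMUT054759.2 (chr5:134142914-134144237) lies on the UTR of Castor2, a relative of the arginine sensor of the mTORC1 pathway. It was 106, 81.8 and 102 CPM in control and 1.94, 1.67 and 1.21 CPM in HBO, a log2 change of -5.86 (SE 0.23, adjusted p = 2.24e-05, edgeR). It was as low in injury, at 1.48 to 1.93 CPM, and with overlapping transcripts merged the change was -5.52. NONMMUT086510.1 (chr12:21558383-21564177, intergenic) was 56.8, 64.7 and 55.2 CPM in control and 30.7, 48.5 and 30.6 CPM in injured cord. It had 0 counts in all 3 HBO libraries, at least 146-fold below control. Merged with the transcripts that overlap it, the change was -2.996 for this locus, 1.87 for that of NONMMUT068776.2 and 2.10 for that of RP23-380L19.3.

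Besides NONMMUT086510.1, the naming rule gave 4 features with 0 counts in every HBO library, and all had low control levels. NONMMUT056987.2 was 6.81, 9.93 and 5.82 CPM in control, at least 18.6-fold above HBO. In HBO, NONMMUT136504.1 was at least 16-fold below control, NONMMUT073505.2 at least 15.6-fold and NONMMUT103109.1 at least 13-fold. Merging overlapping transcripts left -1.07 (adjusted p = 0.10, edgeR) for the first and -0.95 (adjusted p = 0.065, edgeR) for the last, which did not pass. NONMMUT073505.2 lies at Ftx, a neighbour of Xist, and its merged locus had a change of -0.58.

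On the rising side, the naming rule gave 5 more features with 0 counts in every control library, where all rises held 9 such features, NONMMUT068776.2 included. NONMMUT052555.2, which lies on the Rbm47 UTR, was 4.66, 43.9 and 38.4 CPM in HBO, at least 76.5-fold higher. NONMMUT031640.2, intergenic on chromosome 18, was 16.3, 17.6 and 26.3 CPM and at least 52.9-fold higher. For NONMMUT105282.1 the rise was at least 22.2-fold, for NONMMUT078968.1 at least 21.5-fold and for NONMMUT022555.2 at least 19.4-fold. Merged with the transcripts that overlap them, the log2 changes were 2.23 for NONMMUT052555.2, 1.51 for NONMMUT031640.2 and 1.49 for NONMMUT078968.1; no other listed transcript overlapped the remaining 2. Each bound covers counting error only. NONMMUT001471.2, on the UTR of Igfbp5, an insulin-like growth factor binding protein, was 2.27, 1.59 and 2.18 CPM in control. It was 2.33, 1998 and 1161 CPM in HBO, so HBO replicate 1 was at the control level.

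Some features without a common name were abundant. NONMMUT053112.2, on the UTR of Scarb2, a lysosomal receptor, was 662, 824 and 825 CPM in control and 1123, 1210 and 1079 CPM in HBO, a log2 change of 0.56. MSTRG.10196.22, a newly assembled transcript in an intron of Prkca, was 284, 355 and 349 CPM in control and 551, 557 and 511 CPM in HBO, a change of 0.71. NONMMUT053851.2, intergenic on chromosome 5, was 1922, 1422 and 1575 CPM in control and 1080, 720 and 712 CPM in HBO, a change of -0.97. None of the 3 overlapped between the groups, but groups that did not overlap were found for 32.9% of all features tested. NONMMUT126894.1, on chromosome 7 near Snhg14, and NONMMUT003243.2, on the UTR of Acbd6, held 456 and 346 counts over the control libraries and 5 each over the HBO libraries. Both were uneven in injury, at 0, 34.7 and 38.8 CPM and at 0.379, 2.70 and 34.3 CPM.

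Falls without a gene name gathered in a few places. Counts were summed in windows of 1 Mb, a step chosen after the data had been seen, and 537 of 2242 windows passed (24%), 253 upward (11.3%) and 284 downward (12.7%). The count was 77 without control replicate 1, 280 without control replicate 2 and 123 without HBO replicate 2. With library totals from FPKM the split became 158 upward and 297 downward. There were 10 windows with at least 10 called features. The 6 of them with falls held 126 of the 369 falls (34.1%), and the 4 with rises held 71 of the 771 rises (9.21%). The 6 windows held 1104 of the features tested and the 4 held 310, so these shares rest on unlike numbers of features. Windows were picked by these calls, so their values are a description.

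The window with most falls lay on chromosome 1 beside Dpp10, which encodes a partner protein of neuronal potassium channels. All 42 falls there were intergenic and 40 were unspliced, in 841 kb that began 193 kb from Dpp10. All 219 features tested in the window had a negative log2 change, with a median of -1.09. Its summed level was 4598, 4030 and 3753 CPM in control and 1629, 1333 and 2446 CPM in HBO. Injury libraries held 1385 to 2199 CPM, so the HBO and injury libraries overlapped.

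On chromosome 16, adjoining windows beyond Robo2, a receptor of axon guidance, held 31 falls of 215 features and 10 of 114. The first of them was 9696, 9377 and 8188 CPM in control and 4350, 3379 and 5868 CPM in HBO, a log2 change of -1.004. Another window of that chromosome lay inside Lsamp, an adhesion gene of neurons, with 15 falls of 218 features and a change of -0.85. Inside Nrg1, which encodes the growth factor neuregulin, 17 of 247 features fell, and the window changed by -0.79. The window over Ube3a and Snhg14 on chromosome 7 held 11 falls of 91 and changed by -0.90. Control and HBO did not overlap in any of these 6 windows, as in 44.7% of all windows. In them HBO replicate 2 was the lowest HBO library and HBO replicate 3 the highest.

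A smaller share of the rises lay in such windows, which held fewer of the features tested. Just before Trpm3, a cation channel gene, 29 of 51 features rose within 85.5 kb that ended 11.4 kb from the gene. Summed over those 29, the level was 3.41, 5.96 and 55.6 CPM in control and 362, 741 and 296 CPM in HBO, with 395 to 453 CPM in injury. Control replicate 3 stood above the other controls but below every HBO library. The whole window did not pass (log2 change 0.16, adjusted p = 0.412, edgeR).

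Around Zic1 and Zic4, transcription factor genes expressed in meninges and dorsal neural tissue, all 40 features had a positive change and 12 rose. That window was 105, 141 and 134 CPM in control and 379, 944 and 514 CPM in HBO, a log2 change of 2.27 (SE 0.33, adjusted p = 0.00797, edgeR). Between Sash1 and Samd5, 16 of 188 features rose and the window changed by 0.64. The window of Ero1lb and Prl2c3, which also holds Gpr137b-ps, had 14 rises among 31 features and changed by 1.18; its Prl2c genes have near-identical copies. Of the 9 windows that passed, the Zic and Prl2c3 windows alone passed without control replicate 1, and the same held without HBO replicate 2. Without control replicate 2 all but the far window beyond Robo2 passed, and without control replicate 3 all but the window between Sash1 and Samd5.

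**Figure D3:**
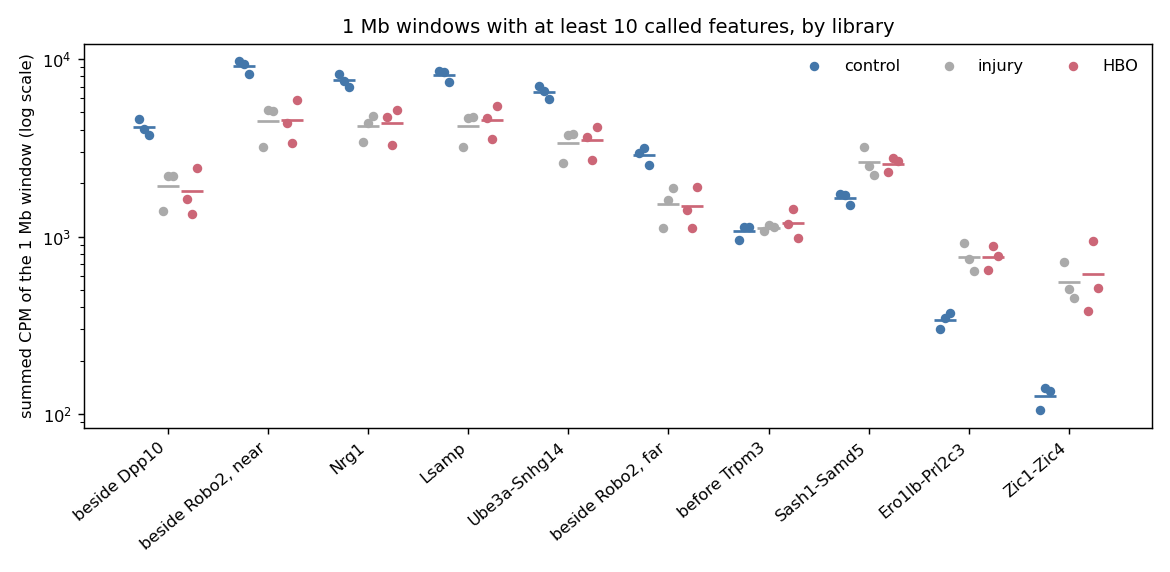
Points are the summed CPM of each 1 Mb window with at least 10 called features in each of the 9 libraries on a log axis, with bars at the group means. In the 6 windows with falls every HBO library lies below every control library, as at Dpp10 with 1333 to 2446 against 3753 to 4598 CPM; the window before Trpm3 does not separate the groups.

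To read coding genes in a table of noncoding transcripts, the counts of all transcripts whose span overlaps a protein-coding gene were summed for that gene. Such a host-gene sum is a level of the listed transcripts on the gene, in introns, UTRs or across from it, and is not a measure of its mRNA. Where those transcripts touch coding exons, as all of them do on Col1a1, B2m and Msr1, mRNA reads may be among the counts and cannot be told apart. Of 7069 sums tested 577 passed (8.16%), with 369 higher (5.22%) and 208 lower (2.94%) in HBO. The median log2 change of all sums was 0.02. Of the 7069 sums, 1910 had an unadjusted p under 0.05 by edgeR, and DESeq2 called 459 higher and 356 lower. In a bulk sample, fewer cells of a type and less RNA per cell cannot be told apart. Without control replicates 1, 2 and 3 the count was 21, 29 and 287, without injury replicate 2 it was 364, and without HBO replicates 2 and 3 it was 83 and 251. Of the 31 named sums that passed, 2 passed without control replicate 1 (Col1a2 and Gria1) and 3 without control replicate 2 (Col1a2, Col5a2 and Ikzf1). All 31 kept their direction in every fit with 1 library left out.

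Of 14 sums tested on genes of fibroblasts and the collagen scar, 6 rose, none fell and 8 missed the threshold; the median log2 change was 1.64. Col1a2, a chain of type I collagen, was 4.06, 7.89 and 8.87 CPM in control and 79.0, 152 and 128 CPM in HBO, a change of 4.09 (SE 0.44, adjusted p = 0.0116, edgeR). It passed in every setting tried. Col5a2, a chain of type V collagen, was 7.45, 7.18 and 20.9 CPM in control and 82.8, 121 and 96.7 CPM in HBO, a change of 3.06 (SE 0.39). Col6a3, Tnc (tenascin C) and Col1a1 rose by 3.40, 1.64 and 5.35. The Igfbp5 sum rose by 8.82 but rests on NONMMUT001471.2, which was at the control level in HBO replicate 1. Postn, a matrix protein gene, did not pass at 3.03 (adjusted p = 0.066, edgeR). The count of rises was 1 without control replicate 1, 2 without control replicate 2, 4 without control replicate 3, and 2 and 3 without HBO replicates 2 and 3. Of 9 sums of chondroitin sulphate proteoglycan genes, components of scar that limit axon growth, Vcan (versican) rose by 1.11 (SE 0.17), from 98.2 to 142 CPM in control to between 236 and 282 CPM in HBO, and 8 did not pass.

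Among sums on genes of immune cells and of debris uptake, Mertk, a phagocytic receptor, was 189, 197 and 246 CPM in control and 389, 629 and 515 CPM in HBO, a log2 change of 1.28 (SE 0.23). Msr1, a macrophage scavenger receptor, was 4.06, 5.74 and 3.80 CPM in control and 17.1, 29.4 and 26.0 CPM in HBO, a change of 2.40. In injury it was 77.6, 28.9 and 35.4 CPM. HBO stood 0.97 below injury on the log2 scale, with an unadjusted 95% interval from -1.85 to -0.09. Of 3 macrophage sums only Msr1 passed against control. None of the 3 did without HBO replicate 2, without HBO replicate 3, or without any 1 of the control libraries. Of 7 microglia sums Mertk and Inpp5d rose, Sparcl1 fell and 4 did not pass. Sparcl1 is itself best known as an astrocyte and endothelial gene. The 2 sums tested from the lymphocyte and neutrophil list, Ptprc (CD45) and Ikzf1, rose by 1.23 and 1.19; both are expressed across blood-derived cells.

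Of 9 lysosome and lipid-handling sums Abca1, a cholesterol exporter, and Ctsd (cathepsin D) rose by 1.85 and 1.58, and 7 did not pass. Abca1 was 69.7, 154 and 144 CPM in control and 336, 622 and 368 CPM in HBO. Of 9 innate immune sums 4 rose and 5 did not pass. A positive change was found for 7 of the 9, while Il1b (-1.10) and Il1a (-0.06) had negative ones. Among the rises were B2m, the light chain of class I molecules, by 1.90, and Cyba, a subunit of the phagocyte NADPH oxidase, by 1.74. The other rises were H2-D1, a class I heavy chain, by 4.30, and Nek7, which acts with the NLRP3 inflammasome, by 0.92. H2-D1 was 3.79, 42.1 and 38.7 CPM in HBO, and class I genes have near-identical copies. A single transcript made up 87.0% of the H2-D1 sum and also counts toward the sum on H2-Q4. Of 4 sums on interferon-induced genes 3 did not pass, and Mx1 rose by 2.19. It was 37.9, 44.0 and 98.7 CPM in HBO, with HBO replicate 3 the highest, and did not pass without that library (adjusted p = 0.094, edgeR). Without HBO replicate 3, 2 of the innate immune sums and both lysosome sums passed, and without control replicate 1, control replicate 2 or HBO replicate 2 none of either list did.

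Of 9 sums on genes of apoptosis and the p53 response, Bcl2l11, a trigger of mitochondrial apoptosis, rose by 1.70 and Casp8, an initiator caspase, by 1.30. Zmat3, a p53 target, fell by 0.98 on the log2 scale. Bcl2l11 was 10.2, 12.2 and 10.1 CPM in control and 32.2, 47.2 and 26.7 CPM in HBO. No cell cycle sum of 3 passed by edgeR, while 1 had an unadjusted p under 0.05 and passed by DESeq2. It was Cdk6, at 35.9, 28.0 and 98.8 CPM in control and 238, 214 and 131 CPM in HBO (1.84, adjusted p = 0.052, edgeR).

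Of 12 sums on genes of neurons 5 fell, none rose and 7 did not pass, and all 12 had a negative change, with a median of -0.71. Nefm, a neurofilament gene, was 128, 118 and 142 CPM in control and 65.8, 36.4 and 59.3 CPM in HBO, a log2 change of -1.27 (SE 0.22, adjusted p = 0.0187, edgeR). Syt1, the calcium sensor of synaptic vesicle release, was 1051, 989 and 943 CPM in control and 515, 363 and 424 CPM in HBO, a change of -1.20. Rbfox3 (NeuN) fell by 1.14, Syn1 by 0.76 and Nrxn3 by 0.67 on the log2 scale. Summed over the tested members, the neuronal list was 7576 to 8865 CPM in control, 4120 to 5789 CPM in HBO and 4288 to 5363 CPM in injury.

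Of 21 sums on genes of synaptic transmission 6 fell and 15 did not pass, all 21 with a negative change and a median of -0.89. Gria1, an AMPA receptor subunit, was 65.7, 81.8 and 77.3 CPM in control and 36.7, 33.8 and 40 CPM in HBO, with 47.2, 56.5 and 52.8 CPM in injury. Its change was -1.02 (SE 0.15, adjusted p = 0.0143, edgeR). HBO stood 0.50 below injury on the log2 scale, with an unadjusted 95% interval from -0.84 to -0.16. Grm5, a metabotropic glutamate receptor, fell from between 369 and 476 CPM to between 163 and 249 CPM, a change of -1.05. Grik1, Gria4 and Gria3, further glutamate receptor subunits, changed by -0.89, -0.78 and -0.69, and Gad2, an enzyme of GABA synthesis, by -0.97. Of 19 ion channel sums 6 fell and 13 did not pass, with a median of -0.71. The falls included Kcnc1 (-1.40), Kcnc2 (-1.001), Scn1a (-0.90), Kcnd2 (-0.78) and Kcnma1 (-0.67), all subunits of channels that set firing. Scn8a was the only ion channel sum with a positive change, 1.12, and did not pass.

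Counting only transcripts away from coding exons, 814 of 4073 sums passed (20%), 401 upward (9.85%) and 413 downward (10.1%). There 9 of 11 neuronal, 16 of 19 transmission and 9 of 14 ion channel sums fell, and none rose. Among the fibroblast sums 5 of 6 rose. By DESeq2 on all transcripts, 8 neuronal, 11 transmission and 8 ion channel sums fell, where 356 of all 7069 sums did. With all transcripts but without HBO replicate 3, 4 neuronal, 3 transmission and 3 ion channel sums fell, and without HBO replicate 2 the numbers were 1, 1 and 0. Without control replicate 1 they were 0, 1 and 0, and without control replicate 2 none fell. Fibroblast sums moved in the same libraries. They came to 174 to 365 CPM in control and 2083, 6673 and 4979 CPM in HBO replicates 1, 2 and 3. Much of that total was Col1a1, at 1544, 2958 and 2440 CPM in the same HBO libraries, and the uneven Igfbp5 sum is also part of it. Macrophage sums came to 15.2 to 28.0 CPM in control and 69.5 to 119 CPM in HBO. The part of both lists in the falls was not tested.

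**Figure D4:**
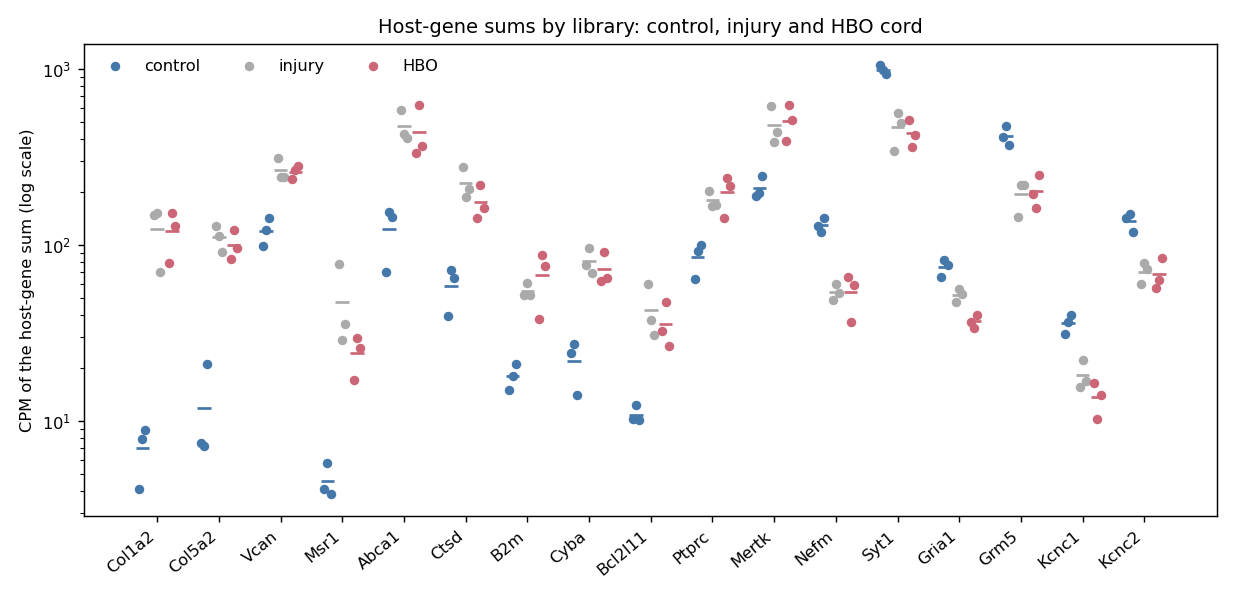
Points are the CPM of host-gene sums in each library on a log axis, with bars at the group means, for 3 control, 3 injury and 3 HBO libraries. Sums from Col1a2 to Mertk lie higher in every HBO library than in every control library, and those from Nefm to Kcnc2 lie lower; groups did not overlap in 32.1% of all sums.

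Among glial lists, of 11 oligodendrocyte sums none passed by edgeR, with a median of -0.35, and their summed level was 5252 to 7187 CPM in control and 5811 to 6854 CPM in HBO. At an unadjusted p under 0.05, 3 were lower, where 1910 of all 7069 sums reached that level in either direction, and DESeq2 called 0. Lingo1 had an adjusted p of 0.156. Of 9 astrocyte sums Slc1a3, a glutamate transporter, rose by 0.67, from between 202 and 233 CPM to between 315 and 362 CPM. The astrocyte list summed to 789 CPM in HBO replicate 3 and to 4767 to 7050 CPM in the other 8 libraries. Slc1a3 was 315 CPM in HBO replicate 3, so the drop lay in other members and does not describe the list as a whole. The list median was 0.11, and 0.50 without that library. Of 5 sums of Schwann cells and peripheral myelin, Drp2 and Cdh19 rose by 1.02 and 0.45 and Nrg1 fell by 0.87 on the log2 scale. Nrg1, also a neuronal gene, holds 273 of the listed transcripts. Neither of the 2 ependymal sums passed by edgeR or DESeq2, and 1 had an unadjusted p under 0.05.

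Among genes tied to oxygen, 1 of the hypoxia response and antioxidant sums passed, where 8.16% of all sums did. Of 8 hypoxia response sums none passed by edgeR, with a median of 0.06; 2 were higher and 1 lower at an unadjusted p under 0.05, and DESeq2 called 0. Epas1 (HIF-2 alpha) had a change of 0.63 (adjusted p = 0.0955, edgeR) and Vegfa one of -0.40. Of 8 antioxidant sums Sod2, the mitochondrial superoxide dismutase, fell by 0.74 on the log2 scale, from 1420, 1084 and 1140 CPM in control to 872, 615 and 697 CPM in HBO. It was 608 to 789 CPM in injury. The others did not pass, Sod1 at -0.00 and Nfe2l2 (NRF2) at 0.94 among them.

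Of 19 autophagy sums Atg9a fell by 4.41 on the log2 scale. That sum is a single transcript, which also lies on Abcb6, at 46.7, 71.0 and 24.1 CPM in control and 5.06, 0 and 1.33 CPM in HBO. Of 8 cholesterol synthesis sums none passed by edgeR, though all 8 had a negative change, with a median of -0.44. At an unadjusted p under 0.05, 4 were lower, and DESeq2 called 2 of them. Msmo1 had a change of -1.81 (adjusted p = 0.0549, edgeR). Of 9 vascular sums Angpt1, a ligand that stabilises vessels, rose by 0.61, from between 57.7 and 69.1 CPM to between 94.8 and 107 CPM. Of 18 sums of axon growth and guidance genes Robo1 fell by 0.81 on the log2 scale, from 5388, 5239 and 4279 CPM in control to 3192, 2025 and 3286 CPM in HBO. Without control replicate 1 or 2 no sum of the glial, antioxidant, autophagy, vascular or axon growth lists passed.

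**Figure D5:**
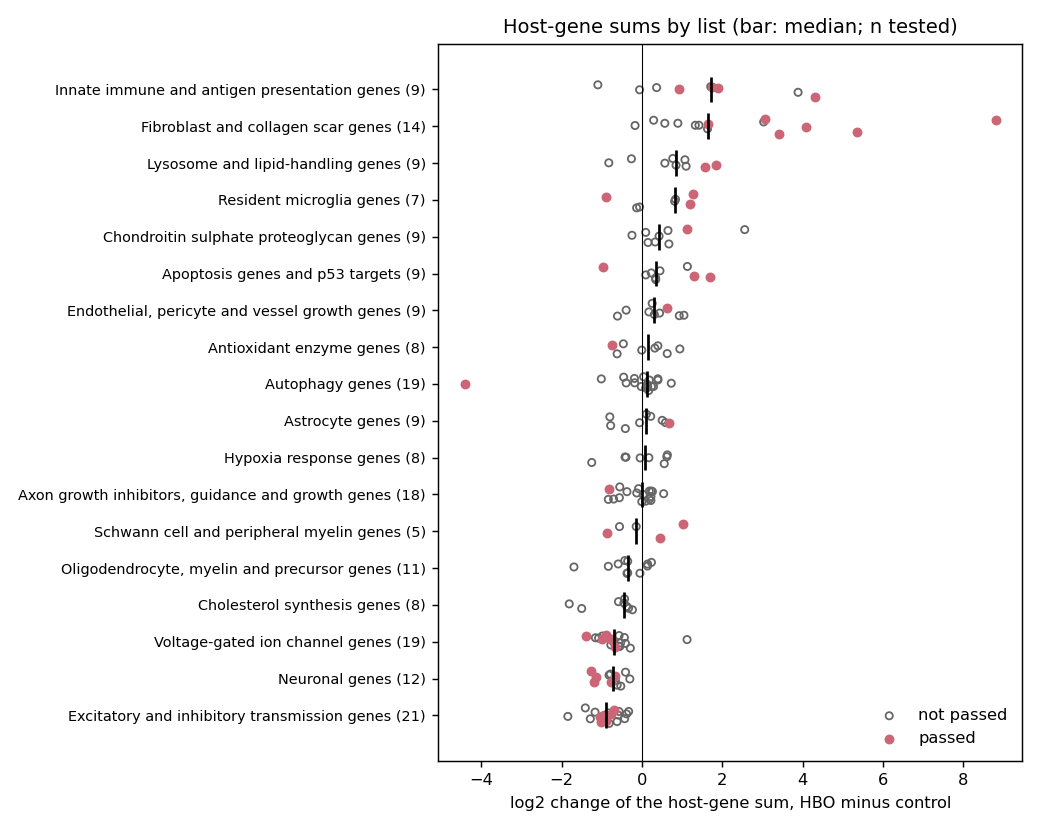
Each point is the log2 change, HBO minus control, of 1 host-gene sum, for lists with at least 5 sums tested, with the number tested in brackets; filled points passed, open points did not, and bars mark list medians. Medians run from -0.89 for transmission genes to 1.71 for innate immune genes; every transmission and neuronal sum lies left of 0.

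What remained different under treatment can be set beside the untreated injury, with the caution that both contrasts use the same 3 control libraries. The list medians against control were 1.64 in HBO and 1.85 in injury for fibroblast sums, -0.71 and -0.75 for neuronal sums, -0.89 and -0.97 for transmission sums, and 0.85 and 0.97 for lysosome sums. Innate immune sums had medians of 1.71 and 1.60. The 4 interferon sums had medians of 1.97 and 0.94 and the 3 macrophage sums 2.33 and 2.89. Taken directly between HBO and injury, no member of any of these lists passed by edgeR or DESeq2. At an unadjusted p under 0.05 there were 0 fibroblast, 0 neuronal, 2 transmission, 1 lysosome and 1 innate immune sums, and the median differences were -0.26, 0.02, 0.06, -0.14 and 0.09 in that order. Among the interferon sums 2 were higher in HBO at that level, with a median difference of 1.59, and among the macrophage sums 1 was higher and 1 lower, with a median of -0.97. The interferon list was uneven, at 118, 387 and 852 CPM in HBO replicates 1, 2 and 3 against 76.5 to 179 CPM in injury. Without HBO replicate 3 its median against control was 1.39. Over all 7069 host-gene sums 2 passed between HBO and injury (0.0283%), neither of them on a list, and over all 2242 windows 1 passed (0.0446%). For single genes the intervals of that difference were wide. For Col1a2 it ran from -0.86 to 0.76 and for Nefm from -0.51 to 0.49 on the log2 scale. Col1a1 was 120, 654 and 1031 CPM in injury, below every HBO library. Its difference between HBO and injury was 1.94, with an unadjusted interval from -0.31 to 4.20. Differences inside such intervals were not detectable with these libraries.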

How the data were processed

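Total RNA of mouse spinal cord was sequenced in 9 libraries, 3 each of control, injury and HBO. Per the file headers, each deposited table gives every long noncoding transcript a count, whole and not normalized, and an FPKM value. The deposited FPKM values served only to recover library totals as an alternative scaling. The submitters' processing notes name HISAT2 and GRCm38; how reads were counted and whether strand was used are not stated in any source used here.

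Counts were summed per Ensembl gene name and fitted by group over all 9 libraries with edgeR (version 4.0.16, R 4.3.3): TMM scaling, filterByExpr at its minimum count of 10, and the tests glmQLFit and glmQLFTest, with a Benjamini-Hochberg threshold of 0.05. Standard errors derive from the test statistic. Host-gene sums used GENCODE M21, which places 97.1% of the matched Ensembl transcripts at identical coordinates. A total of 29 gene lists was described by counts and medians, with no set test. The comparison, lists and naming rule were chosen with earlier results of these data known.

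Named were the 8 largest changes each way at 5 CPM without overlap, up to 10 each way with an established name, the 4 most abundant calls each way, up to 2 per list each way, calls shared with HBO against injury, and abundant known RNAs. Further list members are given by their counts and were named after their values were seen. The alternatives tried were DESeq2 1.42.0, RLE scaling, no filter, a replicate block, 6 libraries alone, library totals from FPKM, transcripts as listed or merged, features away from coding exons, and leaving out each library; the 1 Mb windows came later. The fit was checked on simulated counts with known changes, most of which it did not call, so features that did not pass are not shown to be unchanged. Replicates differed by more than sampling noise, with a chi-square of 7.8 to 22.8 per degree of freedom, the largest values being those of HBO replicate 3. Bounds against 0 counts set 3 counts over the group and cover counting error only. Some genes are not reported here.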

Additional observations from a re-analysis of the deposited data

Results flagged for a closer look

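Between HBO and injury, 4 features, 2 host-gene sums and 1 window differed by a direct test in the joint edgeR fit and are given here because they separate treated from untreated injured cord. The features other than NONMMUT086510.1 did not pass against control and were picked after their values were seen. NONMMUT086510.1 was 9.57 lower on the log2 scale in HBO than in injury (log2 difference -9.57), a fitted value set by 0 counts in all 3 HBO libraries, and merged with its overlapping transcripts it was -2.996 against control. The sum on Hykk, an enzyme of lysine breakdown, was 38.0, 29.5 and 34.2 CPM in injury and 2.53, 2.55 and 5.33 CPM in HBO, a log2 difference of -3.26 (adjusted p = 0.0241, edgeR). Control libraries held 1.27 to 2.87 CPM, and HBO against control did not pass. The sum on Ide, the insulin-degrading enzyme, was 9.78, 9.21 and 8.39 CPM in injury and 214, 198 and 168 CPM in HBO, a difference of 4.39 (adjusted p = 3.04e-05, edgeR). It was 146, 207 and 186 CPM in control. A single transcript made up 97.9% of the Ide sum, and the Hykk sum is a single transcript. These transcripts are themselves among the features that passed, NONMMUT034612.2 on Ide with a log2 difference of 4.83 and NONMMUT069202.2 on Hykk with -3.29. NONMMUT100183.1, intergenic on chromosome 16, had 0 counts in all 3 injury libraries and was 6.99, 6.27 and 8.89 CPM in HBO and 14.4, 18.3 and 17.4 CPM in control, a fitted difference of 7.27 (adjusted p = 0.0388, edgeR).

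The 1 Mb window of chromosome 18 that holds Arhgap26, Nr3c1 (the glucocorticoid receptor) and Pabpc2 was 98.1, 125 and 94.1 CPM in injury and 286, 264 and 369 CPM in HBO, a log2 difference of 1.53 (SE 0.19, adjusted p = 0.0322, edgeR). It was 250, 308 and 212 CPM in control, from which HBO differed by 0.25 (adjusted p = 0.326, edgeR). Of 2242 windows it was the 1 that passed between HBO and injury (0.0446%).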

How the results depend on the processing

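Of settings for HBO against control, the 1140 features called became 204 with no filter on low counts, 3304 by DESeq2, 9 with a replicate block, 331 on the 6 libraries alone, 1823 with overlapping transcripts merged, and 20 to 1037 with 1 library left out. RLE scaling gave 1137, transcripts as listed 1084, features away from coding exons 1543 and library totals from FPKM 834. Host-gene sums (577) gave 92 with a replicate block, 369 on the 6 libraries alone and 21 to 612 with 1 library left out. The 1 Mb windows (537), added after the data had been seen, gave 307 with a replicate block and 77 to 576 with 1 library left out. The replicate numbers were not shown to pair the libraries. Same-numbered control and HBO libraries deviated from their group means with correlations of -0.01 to 0.05, and 1 of 3 controls correlated best with its own number. Over the named features and sums, 1042 refitted values kept their direction and side of the threshold, 441 kept direction only, 20 newly passed and 17 changed direction, all of them of features that did not pass in either fit. With transcripts merged these were Hotairm1 (0.24), Malat1 (0.34), Firre (-0.0522) and Gm26917 (0.10). Malat1 was 0.0148 away from coding exons. With library totals from FPKM, Sox2ot was -0.12 and Firre -0.16, and Firre was -0.0151 with a replicate block. With 1 library left out, the log2 change ran from -0.0793 to 0.0577 for Malat1, from -0.0839 to 0.11 for Sox2ot, from -0.35 to 0.29 for Firre, from -0.68 to 0.42 for Gm26917 and from -0.54 to 0.11 for C130071C03Rik. The cause of these shifts was not tested. With 3 libraries a group and 2295433 to 2869551 listed counts each, low features rest on few counts, and a change that missed the threshold is not shown to be absent.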

Other observations

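Some further host-gene sums that passed with large changes are given here, chosen after their values were seen. Meox2, a mesodermal homeobox gene, was 0, 0 and 1.27 CPM in control and 8.22, 13.4 and 4.0 CPM in HBO. Tbx18, a T-box gene known from mural and mesenchymal cells, was 2.03, 2.87 and 7.60 CPM and 22.1, 24.9 and 60.0 CPM, a log2 change of 3.05 (SE 0.56). Klf5 changed by 3.46. Piezo2, a mechanically gated channel, was 3.38, 2.87 and 2.53 CPM in control and 22.8, 33.2 and 16.7 CPM in HBO, a change of 3.02 (SE 0.34, adjusted p = 0.0116, edgeR). Col8a1, a short-chain collagen, was 6.09, 8.61 and 7.60 CPM and 67.0, 127 and 133 CPM, a change of 3.86 (SE 0.40). The Piezo2 and Col8a1 sums passed with each library left out in turn. Of those 9 fits, Meox2 passed in 5, and Tbx18 and Klf5 in 6 each. In injury Tbx18 was 60.4, 41.7 and 36.0 CPM.

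On the falling side, Adgrl1, a latrophilin receptor of synapses, was 663, 492 and 662 CPM in control. It was 26.6, 90.0 and 37.3 CPM in HBO and 46.6, 436 and 128 CPM in injury. This sum is a single transcript, which touches a coding exon and also makes up the sum on Gm10644. Trim2, a ubiquitin ligase of neurons, was 385, 1458 and 1449.5 CPM in control and 353, 105 and 133 CPM in HBO, with control replicate 1 close to HBO replicate 1. The log2 change of Trim2 was -2.47, and -0.72 away from coding exons. Rxfp1, the relaxin receptor, was 33.9, 17.9 and 27.9 CPM in control and 3.79, 6.38 and 9.33 CPM in HBO, a log2 change of -2.02 (SE 0.40). Of 9 fits with 1 library left out, Trim2 passed in 2, Adgrl1 in 3 and Rxfp1 in 5.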
